A study of Drosophila melanogaster with 4 samples.

Results

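The DNA transposon '1360', also called hoppel, was followed through 4 libraries of directly sequenced poly(A) RNA from the ovary of *Drosophila melanogaster*. It is 1 of 124 transposons among the 150 reference sequences in the deposited tables, and it was taken by its name alone. Every count on its consensus of 3409 nt was used. Its name is written in quotation marks to set it apart from measured values.

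The first pair of libraries came from dissected ovaries, with the genotypes Tj-GAL4>vretenoGD and Tj-GAL4>arrestin2GD. The tj-GAL4 driver works in ovarian somatic cells. Here it drove a hairpin targeting *vreteno*, whose Tudor-domain product takes part in piRNA biogenesis, or a hairpin targeting *arrestin2* as the control. Both ovary samples also hold germ cells, in which this driver does not express the hairpin. The second pair came from OSCs, a single cultured line of ovarian somatic follicle cells, treated with siPIWI or with siGFP as the control. Each group had 1 library. No age was given in the sources used here. The tables hold repeats and no gene, so the knockdowns and the cell types were not checked against marker genes.

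'1360' belongs to the P superfamily of DNA transposons, which move by excision and reinsertion through a transposase and are bounded by terminal inverted repeats. Unlike a retrotransposon, such an element does not need a full-length RNA copy of itself to move. Most '1360' copies in this species are truncated or internally deleted, and they are dense in pericentromeric heterochromatin and on chromosome 4. The piRNA pathway, which guides Piwi-class proteins to transposon RNA, and heterochromatin proteins are known to act on '1360' copies in flies. Relatives of '1360' lie inside the Suppressor of Stellate repeats of the Y chromosome.

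The transposon reads numbered 5156 in vreteno knockdown ovaries, 2382 in arrestin2 control ovaries, 164243 in siPIWI OSCs and 57045 in siGFP OSCs. The tables hold only reads assigned to the 150 sequences, and total sequencing depth is not known. Each count was read as 1 read whose 3' end fell on that position. The tables give no strand. An RNA of either strand of '1360' could therefore add to any position, and the text speaks of the position where a read ended without naming a strand. Direct RNA reads carry no molecular identifiers, and all intervals cover counting error only.

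The level of '1360' was not detectably different from the typical transposon in either knockdown. In vreteno knockdown ovaries 54 reads were assigned to it, against 51 in arrestin2 control ovaries. In siPIWI OSCs 214 reads were assigned to it, against 105 in siGFP OSCs. The knockdown library of each pair was scaled to its control by a median ratio, taken across the transposons that had 10 or more reads in each of the 2 libraries. This ratio was 0.903 in ovary and 1.99 in OSCs. On this scale the fold of '1360' was 1.17 in ovary (95% counting interval 0.785 to 1.75) and 1.03 in OSCs (0.809 to 1.31). With the interval of the scaling added, the ranges widened to 0.663 to 2.08 in ovary and 0.610 to 1.68 in OSCs. A 4-fold difference lay outside these ranges in both pairs. With 1 library per group there is no replicate check and no test across conditions. In these bulk samples, fewer cells that carry the RNA and less RNA per cell cannot be told apart.

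As background for these folds, 45 transposons had 10 reads or more in a library of the ovary pair. Of these, 26.7% were higher by 4-fold or more in the knockdown and 0% were lower by as much. In the OSC pair 24.7% of 73 transposons were higher by 4-fold or more and 0% lower. These calls used scaled reads with a pseudocount of 1 read. '1360' passed in neither pair. Ordered by log2 ratio from the highest, it was number 25 of the 45 in ovary and number 43 of the 73 in OSCs. The minimum was met mostly through the knockdown libraries. In ovary 44 transposons had 10 reads or more with the vreteno hairpin and 31 with the arrestin2 hairpin. In OSCs 73 did with siPIWI and 54 with siGFP. Entry through the knockdown alone can raise the share called higher and move '1360' down the order.

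The direction of the '1360' fold rested on the scaling. Scaled by total transposon reads, the ovary fold was 0.489 (0.327 to 0.732) and the OSC fold 0.708 (0.558 to 0.903), both below 1. Scaled by the non-transposon sequences of the same tables, the ovary fold was 1.75 (1.17 to 2.62), above 1. That scaling gave 0.953 (0.751 to 1.22) in OSCs. Without scaling the OSC fold was 2.04 (1.61 to 2.60).

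As a share of all transposon reads, '1360' was lowest in siPIWI OSCs with 0.130% (0.113 to 0.149), followed by siGFP OSCs with 0.184% (0.151 to 0.223), vreteno knockdown ovaries with 1.05% (0.788 to 1.36) and arrestin2 control ovaries with 2.14% (1.60 to 2.81). No 2 neighbours in this order had intervals that overlapped, though those of the OSC libraries nearly touched. Such a share moves with the other transposons: copia alone took 52.9% of transposon reads in siPIWI OSCs and 73.2% in siGFP OSCs. Without copia in the total, the shares of '1360' were 0.277% in siPIWI OSCs and 0.688% in siGFP OSCs, 1.27% in vreteno knockdown ovaries and 2.71% in arrestin2 control ovaries, in the same order.

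Among DNA transposons the order of the tissues turned round. Of the reads of 23 listed DNA transposons, '1360' made up 21.7% in siPIWI OSCs (19.2 to 24.4; 214 of 986 reads) and 17.5% in siGFP OSCs (14.6 to 20.8; 105 of 599). It made up 9.73% in vreteno knockdown ovaries (7.39 to 12.5; 54 of 555) and 7.24% in arrestin2 control ovaries (5.44 to 9.42; 51 of 704). Within each tissue the intervals of knockdown and control overlapped. Between the tissues they did not. By number of reads, '1360' ranked 20th of the 124 transposons in siPIWI OSCs and 17th in siGFP OSCs. It ranked 12th by reads in vreteno knockdown ovaries and 10th in arrestin2 control ovaries. By reads per kilobase of consensus, which places short sequences higher, it ranked 19th in siPIWI OSCs and 15th in siGFP OSCs. On that measure it ranked 13th in vreteno knockdown ovaries and 8th in arrestin2 control ovaries.

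The other DNA transposons of the list lay mostly near the median ratio as well. Of the 23 in the files, 8 had at least 10 reads in a library of the ovary pair and 12 in the OSC pair. Transib1 was the 1 member past 4-fold in each pair and 0 were at least 4-fold lower. The median log2 ratio of the list was -0.14 in ovary, against 0.26 over all 45 transposons, and -0.31 in OSCs, against 0.27 over all 73. These medians come from the same scaled reads, and members past the minimum through 1 library alone are among them.

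The P-element, the best known member of the superfamily of '1360' and a late arrival in wild *D. melanogaster*, had 43 reads in vreteno knockdown ovaries and 54 in arrestin2 control ovaries, a fold of 0.882 (0.577 to 1.34). In OSCs it had 26 reads with siPIWI and 3 with siGFP, a fold of 4.37 (1.34 to 22.5), which falls under the 4-fold call once the pseudocount is added (log2 ratio 1.82). Which P-element sequences in the genomes of these flies or cells gave rise to these reads was not determined. The Tc1-mariner element pogo had 139 reads in vreteno knockdown ovaries and 218 in arrestin2 control ovaries (0.706-fold, 0.566 to 0.877), and 195 reads with siPIWI and 120 with siGFP (0.819-fold, 0.649 to 1.04). The S-element, of the same superfamily as pogo, had 44 and 62 reads in vreteno knockdown and arrestin2 control ovaries (0.786-fold, 0.521 to 1.17). With siPIWI and siGFP it had 74 and 39 reads (0.956-fold, 0.640 to 1.45). For these 3 elements, the intervals that lay off 1 were those of pogo in ovary and of the P-element in OSCs. With the interval of the scaling added, the interval of pogo in ovary widened to 0.479 to 1.04 and spanned 1, and that of the P-element in OSCs ran from 1.01 to 28.9.

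Of the other members past the read minimum, DNAREP1, a short non-autonomous repeat, had 202 and 240 reads in vreteno knockdown and arrestin2 control ovaries and 223 and 148 reads in siPIWI and siGFP OSCs. Its folds were 0.932 (0.769 to 1.13) in ovary and 0.759 (0.614 to 0.941) in OSCs. The foldback element FB4 had 32 and 42 reads in the ovary libraries and 50 and 19 in the OSC libraries, in the same order. Its folds were 0.844 (0.515 to 1.37) in ovary and 1.33 (0.768 to 2.38) in OSCs. Transib1 had 11 reads in vreteno knockdown ovaries and 1 in the control (12.2-fold, 1.77 to 524), or 4.06-fold with 3 reads in place of the 1. In OSCs it had 20 reads with siPIWI and 0 with siGFP, which is 3.36-fold higher when the control is set at a floor of 3 reads per library. The exact 95% interval starts lower, at 2.49-fold, and at 1.88-fold with the interval of the scaling, so the 4-fold call of Transib1 in OSCs rests on the pseudocount. INE-1 had 12 and 3 reads in the ovary pair (4.43-fold, 1.20 to 24.5), under 4-fold once the pseudocount was added. INE-1 and DNAREP1, of 611 and 594 nt, were counted as separate entries. How any reads that match both were placed is not given. The OSC pair also held S2 (0.456-fold, 0.331 to 0.629), Tc1-2 (0.630-fold, 0.310 to 1.30), Transib3 (0.624-fold, 0.337 to 1.17), hopper (0.560-fold, 0.204 to 1.56) and hobo (0.781-fold, 0.431 to 1.45). Of these 5, S2 alone had an interval that lay off 1. With the interval of the scaling added, the OSC interval of S2 ran from 0.250 to 0.806, and that of DNAREP1, 0.463 to 1.21, spanned 1. In ovary hobo, which moves by its own transposase, had 0 reads in vreteno knockdown and 8 in arrestin2 control ovaries, below the read minimum. The exact interval of its fold ended at 0.649, and at 0.770 with the interval of the scaling added.

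**Figure D1:**
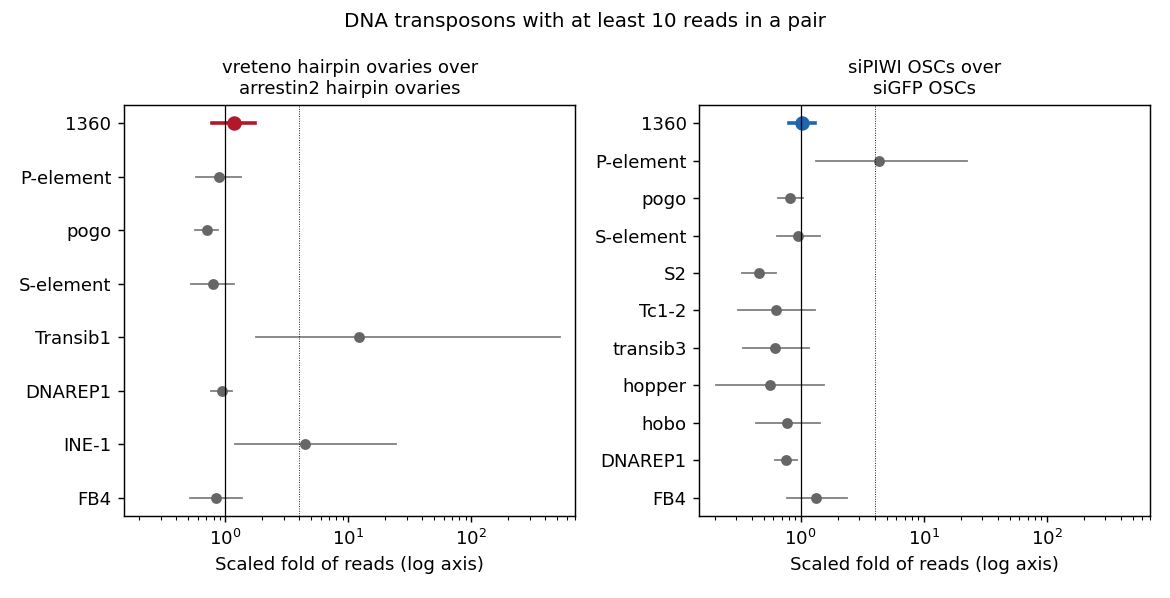
Scaled fold of reads (log axis) for the DNA transposons with at least 10 reads in a library of the pair, vreteno hairpin over arrestin2 hairpin ovaries on the left and siPIWI over siGFP OSCs on the right. Points are folds, lines 95% counting intervals, the solid vertical line marks 1 and the dotted line 4-fold; Transib1 in OSCs is not drawn because its control had 0 reads. The intervals of '1360', 0.785 to 1.75 and 0.809 to 1.31, span 1 and end below 4.

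The 3 transposons whose levels over the 4 libraries were most like those of '1360' were invader2, Doc3-element and TAHRE. Likeness was the root mean square difference over the 4 libraries of log2(reads per 10000 transposon reads + 1), each element centred on its own mean. The added 1 shrinks differences among elements with few such reads. Likeness was taken against 60 other transposons with at least 10 reads in at least 2 libraries. It was 0.16 for the LTR element invader2, 0.23 for the non-LTR element Doc3-element and 0.27 for the telomeric retrotransposon TAHRE. Invader2 had 7 reads in vreteno knockdown ovaries and 6 in the control, and 22 with siPIWI and 10 with siGFP. Doc3-element had 34 and 36 reads in the ovary libraries and 90 and 60 in the OSC libraries, in the same order. TAHRE had 14 and 18, and 36 and 19. With copia left out of the total, invader2 and Doc3-element kept the first 2 places and opus took the third.

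What set the '1360' reads apart from those of most transposons was where they ended. Reads of '1360' fell into a group in the first 15% of the consensus (positions up to 511), a group in the last 30% (from position 2387) and few between. In vreteno knockdown ovaries 31 of 54 reads ended in the first 15% (57.4%, 43.2 to 70.8), 5 in the middle (9.26%, 3.08 to 20.3) and 18 in the last 30% (33.3%, 21.1 to 47.5). In arrestin2 control ovaries the numbers were 34 of 51 (66.7%, 52.1 to 79.2), 0, which allows a share of up to 5.88% when counted as 3 of 51 reads (exact upper limit 6.98%), and 17 (33.3%, 20.8 to 47.9). The classes of the ovary libraries overlapped in their intervals throughout.

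In siPIWI OSCs 94 of 214 reads ended in the first 15% (43.9%, 37.2 to 50.9), 42 in the middle (19.6%, 14.5 to 25.6) and 78 in the last 30% (36.4%, 29.995 to 43.3). In siGFP OSCs the numbers were 52 of 105 (49.5%, 39.6 to 59.5), 16 (15.2%, 8.97 to 23.6) and 37 (35.2%, 26.2 to 45.2). Again the intervals of knockdown and control overlapped in each class. Middle ends were more frequent in siGFP OSCs than in arrestin2 control ovaries, with separate intervals, while the intervals of siPIWI OSCs and vreteno knockdown ovaries overlapped. The share of ends in the last 30% lay between 33.3% and 36.4% in all 4 libraries.

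**Figure D2:**
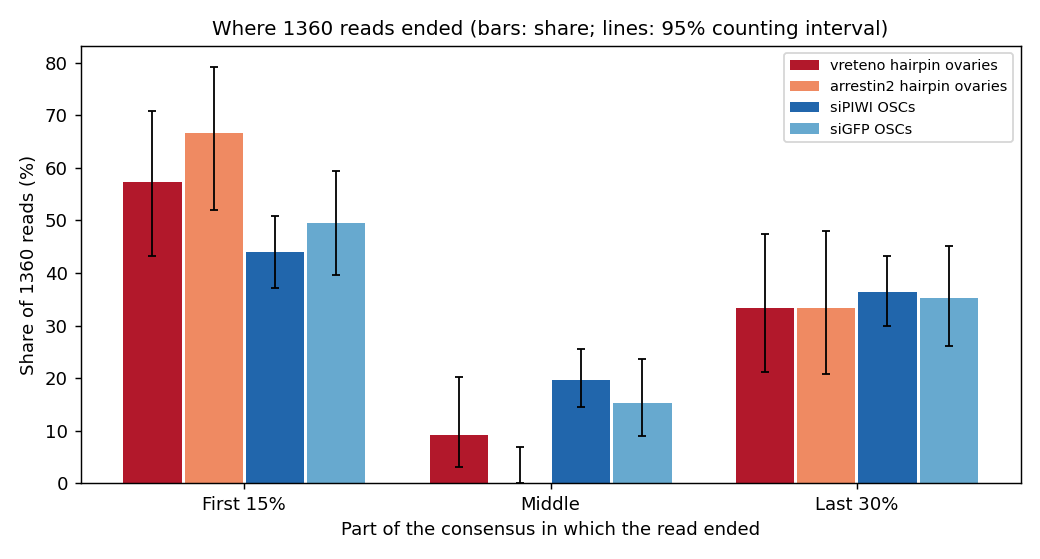
Share of '1360' reads (y axis, %) that ended in the first 15%, the middle and the last 30% of the consensus, in vreteno hairpin ovaries, arrestin2 hairpin ovaries, siPIWI OSCs and siGFP OSCs. Bars are shares and lines 95% counting intervals. Ends in the last 30% make up 33.3% to 36.4% in each library, while ends in the middle make up 19.6% and 15.2% in the OSC libraries, 9.26% in vreteno hairpin ovaries and 0 in arrestin2 hairpin ovaries.

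Scaled by the median ratio, neither group of ends differed detectably between knockdown and control. The scaled fold of ends in the first 15% was 1.01 in ovary (0.59997 to 1.69) and 0.911 in OSCs (0.642 to 1.30). For ends in the last 30% it was 1.17 in ovary (0.570 to 2.42) and 1.06 in OSCs (0.709 to 1.62). Ends in the middle had a fold of 1.32 in OSCs (0.728 to 2.52). In ovary 5 reads stood against 0, which is 1.85-fold higher when 3 reads stand for the 0. The exact 95% interval starts at 1.01, without the interval of the scaling, which would widen it. Scaled by total transposon reads, the fold of ends in the first 15% was 0.421 (0.250 to 0.706) in ovary and 0.628 (0.443 to 0.899) in OSCs. Both of these intervals lay below 1, so the result for the first 15% depends on the scaling.

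The ends in the first 15% were spread over many positions but kept to the same main ones. Position 351 held 4 reads in vreteno knockdown ovaries, 8 in arrestin2 control ovaries, 39 in siPIWI OSCs and 15 in siGFP OSCs. Position 330 held 7, 3, 30 and 15 reads in the same order. They held the most reads within the first 15% in each library, except that in arrestin2 control ovaries position 330 was level with positions 256, 323 and 383 at 3 reads each. Between position 318 and position 351, a stretch of 34 nt, lay 25.9% of all '1360' reads in vreteno knockdown ovaries (14.96 to 39.7), 33.3% in arrestin2 control ovaries (20.8 to 47.9), 38.3% in siPIWI OSCs (31.8 to 45.2) and 44.8% in siGFP OSCs (35.0 to 54.8). All 4 intervals overlapped.

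The ends in the last 30% gathered at the end of the element. Position 3408, next to the last base, held 8 reads in vreteno knockdown ovaries, 7 in arrestin2 control ovaries, 17 in siPIWI OSCs and 8 in siGFP OSCs. The last 100 positions held 31.5% of all '1360' reads in vreteno knockdown ovaries, 31.4% in arrestin2 control ovaries, 30.4% in siPIWI OSCs and 29.5% in siGFP OSCs. The last 10 positions lie within the terminal inverted repeat, which '1360' carries at both ends. They held 11 of 54 reads in vreteno knockdown ovaries, 11 of 51 in arrestin2 control ovaries, 25 of 214 in siPIWI OSCs and 16 of 105 in siGFP OSCs. How reads that match both copies of this repeat were placed is not given in the sources used here.

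**Figure D3:**
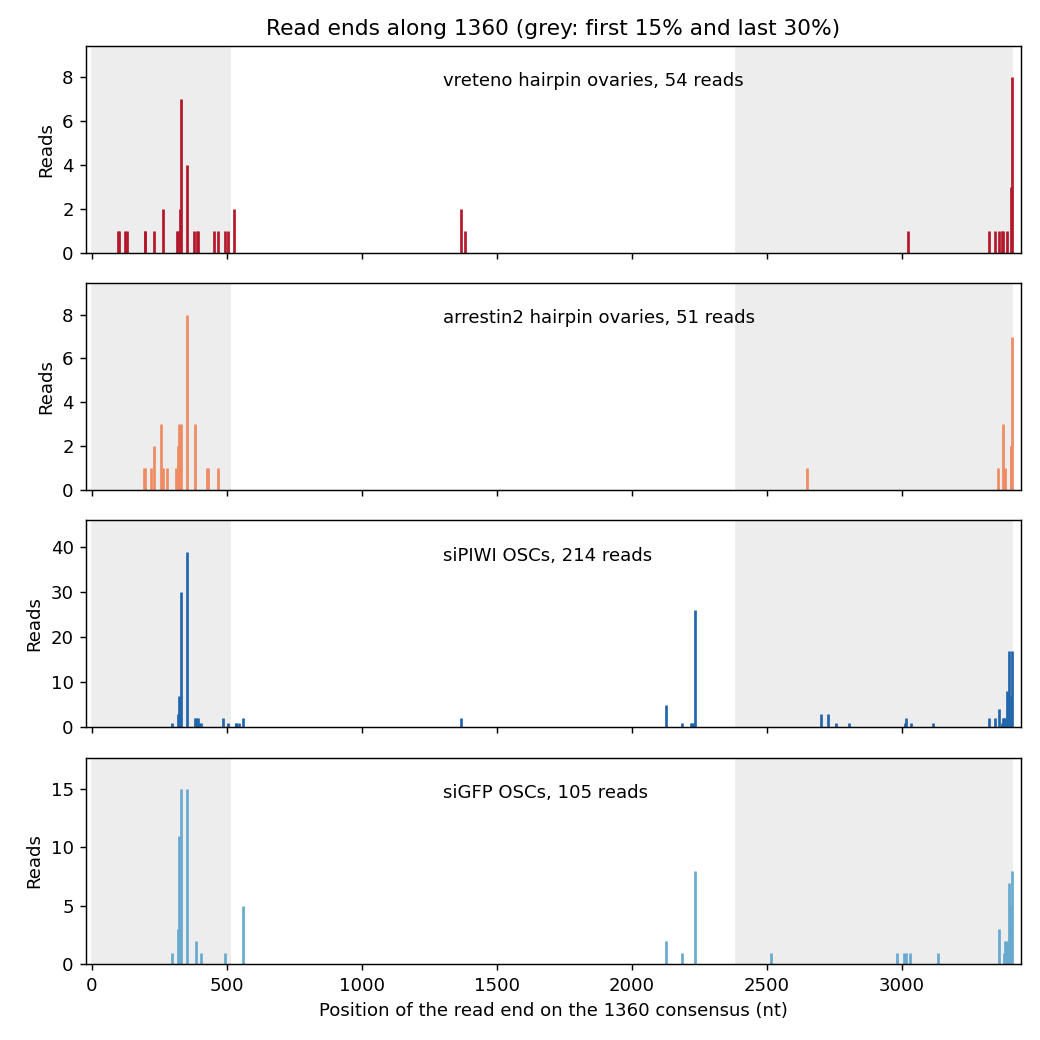
Number of reads (y axis, own scale in each panel) that ended at each position of the '1360' consensus (x axis, nt), from top to bottom in vreteno hairpin ovaries, arrestin2 hairpin ovaries, siPIWI OSCs and siGFP OSCs. Grey marks the first 15% and the last 30%. All 4 libraries show ends around positions 330 to 351 and at 3408, and the OSC libraries alone show the line at 2232.

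Of 77 positions with a read in any library, 6 were used in all 4 libraries: 318, 327, 330, 351, 3403 and 3408. Together they held 46.3% of '1360' reads in vreteno knockdown ovaries (32.6 to 60.4), 45.1% in arrestin2 control ovaries (31.1 to 59.7), 46.3% in siPIWI OSCs (39.4 to 53.2) and 46.7% in siGFP OSCs (36.9 to 56.7). A further 45 positions had reads in 1 library alone. Of the siPIWI reads, 83.6% (78.0 to 88.3) ended at a position that siGFP OSCs also used, and 93.3% of the siGFP reads (86.7 to 97.3) ended at a position that siPIWI OSCs used. In ovary these shares were 55.6% of vreteno knockdown reads (41.4 to 69.1) and 56.9% of arrestin2 control reads (42.2 to 70.7). The OSC libraries are deeper, which raises the chance that a position is seen in both.

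The chance that 2 reads of a library shared their end position, a measure that does not grow with depth, was 8.26% in siPIWI OSCs and 6.92% in siGFP OSCs, 4.33% in vreteno knockdown ovaries and 5.33% in arrestin2 control ovaries. The ovary values include ends upstream of position 296, the first one used in the OSC libraries. The ovary libraries used positions such as 256 (0 reads in vreteno knockdown ovaries, 3 in arrestin2 control ovaries), 263 (2 and 1) and 231 (0 and 2).

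The OSC libraries in turn had ends at positions where no ovary read ended. Position 2232 held 26 reads with siPIWI and 8 with siGFP, and 0 in either ovary library. Within 25 nt of it lay 29 of 214 reads in siPIWI OSCs (13.6%, 9.27 to 18.9) and 8 of 105 in siGFP OSCs (7.62%, 3.35 to 14.5). In the ovary libraries 0 of 54 and 0 of 51 reads did so, which allows shares of up to 5.56% in vreteno knockdown ovaries and 5.88% in arrestin2 control ovaries when counted as 3 reads. The exact upper limits were 6.60% in vreteno knockdown ovaries and 6.98% in arrestin2 control ovaries. Summed over libraries, 37 of 319 OSC reads (11.6%, 8.30 to 15.6) ended there, against 0 of 105 ovary reads, which allows up to 2.86% when counted as 3 reads (exact upper limit 3.45%). Between the OSC libraries the scaled fold of these ends was 1.83 (0.815 to 4.62). Position 3395 held 17 reads with siPIWI, 7 with siGFP and 0 of the 105 ovary reads, but ovary reads ended close to it. Within 25 nt of position 3408, which takes in 3395, lay 24.8% of OSC reads (20.1 to 29.9) and 22.9% of ovary reads (15.2 to 32.1). Both positions were singled out after their values were seen. The sums pool knockdown and control libraries. Near 2232 the interval of siPIWI OSCs lay above the upper limits of both ovary libraries, and that of siGFP OSCs overlapped them. Tissue and library cannot be told apart for the control pair or for the knockdown pair, since each group had 1 library.

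The share of middle ends depended on the cluster at 2232 and on the borders. Without the ends within 25 nt of 2232, an alternative chosen after seeing the data, the middle held 13 of 185 reads in siPIWI OSCs (7.03%, 3.79 to 11.7) and 8 of 97 in siGFP OSCs (8.25%, 3.63 to 15.6), and the ovary shares stayed at 5 of 54 reads in vreteno knockdown and 0 of 51 in arrestin2 control ovaries. These intervals overlap those of both ovary libraries. With the middle class narrowed to leave out the first 20% and the last 40%, which moves both 2232 and the ends just past position 511 out of it, it held 0.935% of reads in siPIWI OSCs, 0 in siGFP OSCs, 5.56% in vreteno knockdown ovaries and 0 in arrestin2 control ovaries. With borders at the first 10% and the last 20%, the border falls between positions 330 and 351, and the first class held 20.6% in siPIWI OSCs and 31.4% in siGFP OSCs, 37.0% in vreteno knockdown ovaries and 39.2% in arrestin2 control ovaries.

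Of 4 clusters of ends with at least 10 reads in a library, each within 25 nt of its main position, 3 showed no difference between knockdown and control beyond counting error. These cluster folds were scaled by the median ratio. The cluster at 351 had folds of 1.20 in ovary (0.505 to 2.88) and 1.10 in OSCs (0.718 to 1.71). The cluster at 3408 had 1.11 (0.455 to 2.69) in ovary and 0.970 (0.598 to 1.61) in OSCs. The cluster at 323, which takes ends from 298 to 323, had 10 reads with siPIWI and 15 with siGFP, a fold of 0.336 (0.135 to 0.799), and its range reached 1.03 with the interval of the scaling added. In ovary it had 2 and 6 reads in vreteno knockdown and arrestin2 control ovaries.

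Most transposons ended mainly near the 3' end of their consensus, a pattern that was itself used to read the counts as read ends. At least 50% of the ends lay in the last 30% for 36 of 44 transposons with 10 or more reads in vreteno knockdown ovaries, 22 of 31 in arrestin2 control ovaries, 62 of 73 in siPIWI OSCs and 41 of 54 in siGFP OSCs. '1360' was not among them in any library. Across transposons with 10 or more reads, the median share of ends in the first 15% was 3.77% in vreteno knockdown ovaries, 4.13% in arrestin2 control ovaries, 4.16% in siPIWI OSCs and 5.12% in siGFP OSCs. By this share '1360' ranked 4th of 44 in vreteno knockdown ovaries, 5th of 31 in arrestin2 control ovaries, 5th of 73 in siPIWI OSCs and 6th of 54 in siGFP OSCs. These ranks describe the libraries and were not tested. Some retrotransposons, picked after their values were seen, had a like split. Burdock had 55.6% of its ends in the first 15% and 42.6% in the last 30% in vreteno knockdown ovaries. In arrestin2 control ovaries it had 64.8% and 33.8%. TART-A had 53.3% and 46.7% in siPIWI OSCs, and 48.4% and 51.6% in siGFP OSCs.

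Other DNA transposons lay on either side of it. The S-element had 77.3% of its ends in the first 15% in vreteno knockdown ovaries (62.2 to 88.5), 91.9% in arrestin2 control ovaries (82.2 to 97.3), 78.4% in siPIWI OSCs (67.3 to 87.1) and 69.2% in siGFP OSCs (52.4 to 83.0). FB4 had 71.9% (53.3 to 86.3), 71.4% (55.4 to 84.3), 26.0% (14.6 to 40.3) and 73.7% (48.8 to 90.9) in the same order. The opposite held for the P-element, with 97.7% of its ends in the last 30% in vreteno knockdown ovaries, 100% in arrestin2 control ovaries and 92.3% in siPIWI OSCs. Pogo had 97.8%, 94.95%, 98.97% and 98.3% of its ends there in vreteno knockdown ovaries, arrestin2 control ovaries, siPIWI OSCs and siGFP OSCs. The intervals of '1360' and of these 2 elements were separate in every library in which both had at least 10 reads. For the first 15%, the S-element interval was separate from that of '1360' in arrestin2 control ovaries and siPIWI OSCs. It overlapped that of '1360' in vreteno knockdown ovaries and siGFP OSCs. The FB4 interval overlapped that of '1360' in every library, and in siPIWI OSCs the FB4 share was the lower one.

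**Figure D4:**
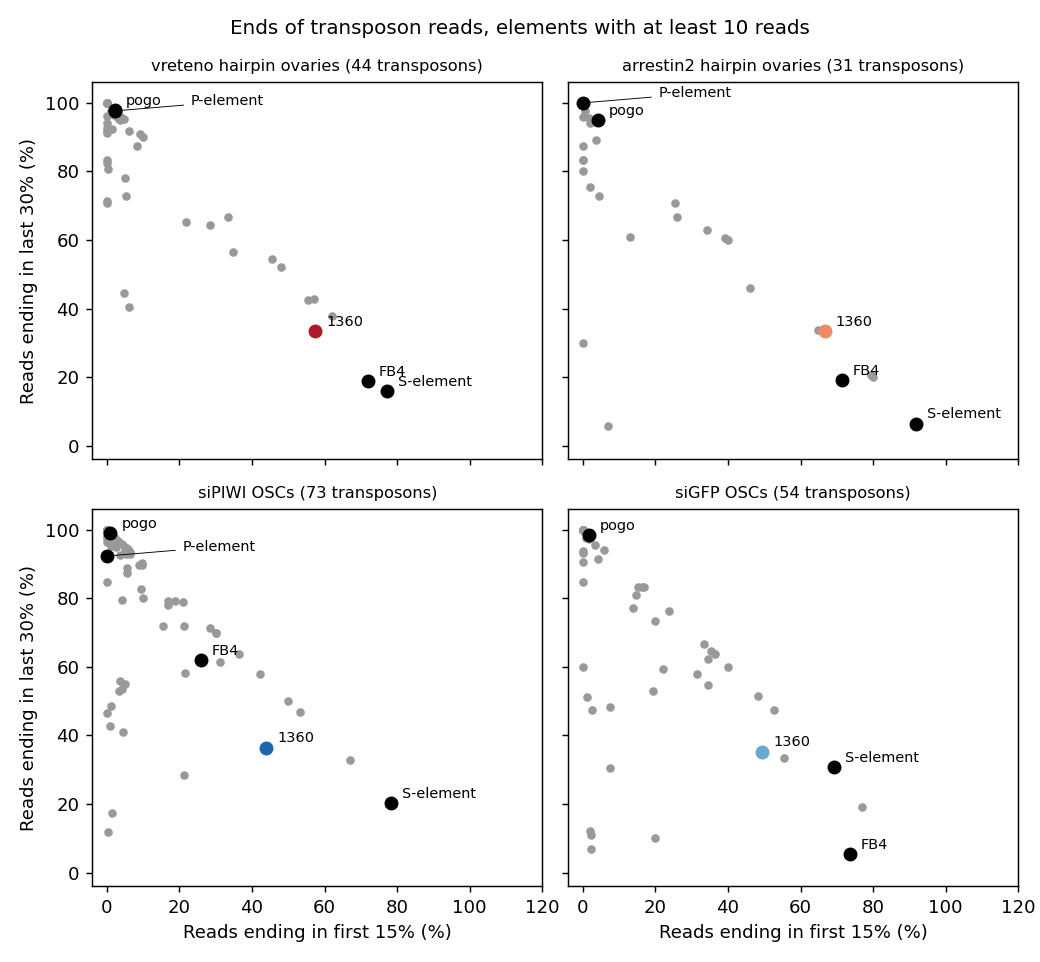
Share of reads that ended in the first 15% (x axis, %) against the last 30% (y axis, %) of the consensus, for each transposon with at least 10 reads, in vreteno hairpin ovaries, arrestin2 hairpin ovaries, siPIWI OSCs and siGFP OSCs. Each grey point is a transposon, the coloured point is '1360' and black points are other DNA transposons. '1360' lies at 43.9% to 66.7% on the x axis, between pogo and the P-element at the upper left and the S-element at the lower right.

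The genome annotation shows what copies such reads could come from. The BDGP6 annotation lists 493 copies of '1360' among 5896 annotated transposon copies, which makes it the second most numerous of 156 families after INE-1 with 2235. Their median length was 1075 nt, and 211 copies (42.8%) measured between 1000 and 1199 nt, against a consensus of 3409 nt. By annotated span, 12 copies were at least as long as the consensus, and 7 of these lie on the Y chromosome, which females do not carry. Spans reach 7854 nt and can enclose another listed copy, so these 12 are not a count of complete copies. Copies of 3403 and 3399 nt fell just under the consensus length. The deposited tables hold no genome position, so no read was assigned to a copy. Which part of the consensus the copies of 1000 to 1199 nt hold was not analysed here.

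By chromosome, 60 copies lie on chromosome 4, which has 80 annotated protein-coding genes, a density of 75 copies per 100 such genes. The X chromosome has 1.78 and the arms of chromosomes 2 and 3 between 2.02 and 4.21 copies per 100 protein-coding genes. On the Y chromosome 57 copies stand beside 23 protein-coding genes. Of the 493 copies, 43 (8.72%) overlap an exon of a gene, 183 (37.1%) lie in introns alone and 267 (54.2%) outside genes. On chromosome 4 these numbers are 10, 33 and 17.

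**Figure D5:**
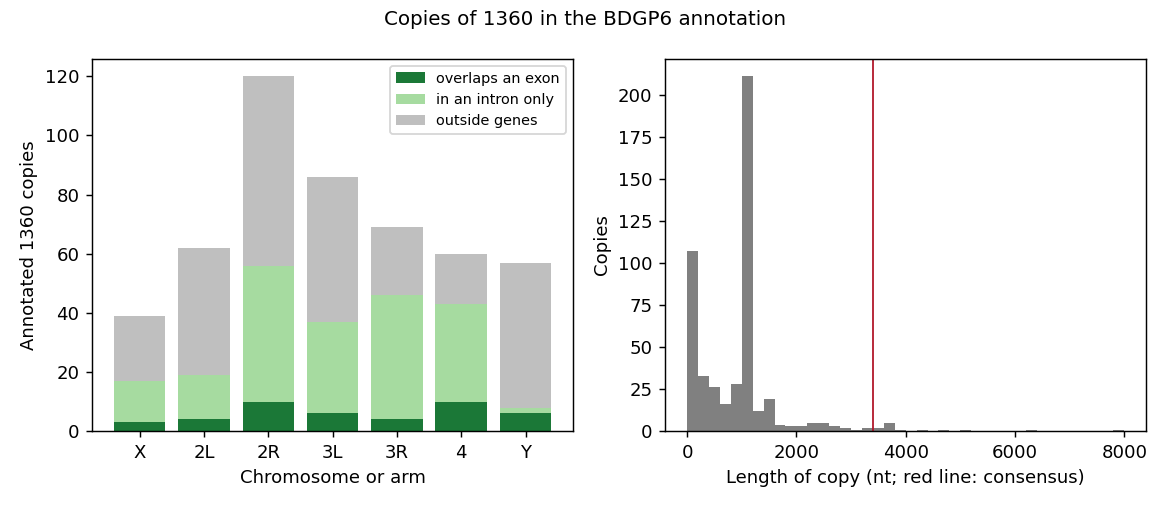
Annotated copies of '1360' in BDGP6 by chromosome or arm, split by overlap with genes (left, number of copies), and the lengths of all 493 copies in bins of 200 nt (right, red line at the consensus length of 3409 nt). The bin from 1000 to 1199 nt holds 211 copies, and 60 copies lie on chromosome 4.

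Some copies carry the annotated 3' end of a transcript of a gene, and poly(A) RNA of that transcript would end in '1360' sequence. Other transcripts of the same gene may end elsewhere. Whether the non-coding genes and pseudogenes among them give poly(A) RNA was not checked. This was so for 21 copies and 23 genes, 12 of them protein-coding, and in all 12 the copy overlaps the 3' UTR. Per 100 kb of annotated sequence, 4.49 copies of '1360' held such an end, against 5.27 for INE-1 and 0.726 over the other families together. Per copy the order of '1360' and INE-1 turns, with 4.26% of '1360' copies (2.66 to 6.44), 1.30% of INE-1 copies (0.871 to 1.86) and 1.89% of the copies of the other families (1.45 to 2.43). Copies of '1360' had a median length of 1075 nt and those of INE-1 of 146 nt. Among the protein-coding genes, 6 run in the direction of the copy and 6 against it. In the direction of the copy run *Agpat1*, an acyltransferase of phospholipid synthesis (copy at chrX:12770914-12771560, plus strand), *ari-1*, an E3 ubiquitin ligase (chrX:18131319-18132003, minus strand), and *Sec20*, a SNARE of retrograde transport to the endoplasmic reticulum (chr3R:5822435-5823541, minus strand). Against it run *Nsun2*, an RNA methyltransferase (copy at chrX:4111110-4111170), and *pan*, the TCF factor of Wingless signalling (chr4:101068-101426). A further 5 of the 23 are Su(Ste) genes of the Y chromosome, and the Su-Ste entry of the tables had 0 reads in all 4 libraries. Whether any '1360' read came from RNA of these genes was not tested.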

How the data were processed

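TRIzol extracts were selected for poly(A) tails with oligo(dT) beads, and the RNA itself was sequenced with the ONT RNA002 kit, per the labels' protocols. The authors deposited whole-number counts per position of 150 reference sequences, with columns for the sequence, the position and the value per the file headers, and with no normalization. Minimap2 is among the tools listed, with no role given, per the submitters' processing notes. The settings of the alignment, the reference set and the placement of multiply matching reads are not given in the sources used here. That a count is a read end was read from the values, since the counts pile up at single positions and, for most transposons, in the last 30% of the consensus.

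Counts were summed per element and library with Python 3.11.15, pandas 2.3.3 and scipy 1.17.1. The 26 sequences that are no transposons were kept out of the totals. Folds used the scaled knockdown library over its control, with exact conditional 95% intervals, and shares had exact Clopper-Pearson 95% intervals. Elements were called at a log2 ratio of 2 or more, or -2 or less, with 1 read added to both libraries after scaling, for elements with at least 10 reads in 1 of them. The DNA transposon list had 26 names, of which 23 were in the files (FB was matched to FB4 once the names were seen). The text names '1360', list members with at least 10 reads in a library and the 3 transposons most like it, with or without copia in the total. Copia is named for its share, and Burdock and TART-A for their ends. Of the 12 protein-coding genes with an end in a copy, some were named by no set rule. Members and lists were chosen with earlier results of these data known. Copies of '1360' and gene ends were read from the Ensembl annotation of BDGP6. The consensus sequence of '1360' was not used here. The calculations were run on simulated counts with a known depth ratio. The intervals were checked there with that known ratio, so the error of the scaling was not covered. Alternatives were other scalings, pseudocounts, read minimums, class borders, cluster windows and totals, and, chosen after seeing the data, leaving out the main cluster of middle ends.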

Additional observations from a re-analysis of the deposited data

How the results depend on the processing

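No paired analysis was possible because each group had 1 library and no replicate numbers were given; for the same reason no library could be left out. Of 113 alternative values for 33 results, 81 moved by less than the counting interval, the spread over list members or 1.5 times the count, and 32 moved by more. Scaled by total transposon reads, the ovary folds of '1360' were 0.489 for all reads, 0.421 for ends in the first 15% and 0.489 for ends in the last 30%, the OSC folds were 0.708 and, for ends in the first 15%, 0.628, the ovary median of the DNA transposon list was -1.38, and 7 transposons were at least 4-fold higher and 1 lower in ovary. Without copia in the total, the folds were 0.469 in ovary and 0.402 in OSCs, and the shares of '1360' 0.277% with siPIWI and 0.688% with siGFP. Scaled by non-transposon sequences, the ovary fold was 1.75, and unscaled, the OSC fold was 2.04. A pseudocount of 10 reads left 7 transposons at least 4-fold higher in ovary, and a minimum of 5 reads gave 1 lower, hobo.

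Class borders at the first 10% and last 20% moved shares because positions 330 and 351 then fall into different classes. The first class was 37.0% in vreteno knockdown and 39.2% in arrestin2 control ovaries, 20.6% with siPIWI and 31.4% with siGFP. The middle was 29.6% in vreteno knockdown and 29.4% in arrestin2 control ovaries, 45.8% with siPIWI and 34.3% with siGFP. With borders at the first 20% and last 40%, position 2232 joins the last class and ends just past 511 the first. The last class held 52.8% with siPIWI and 45.7% with siGFP, and the middle 0.935% with siPIWI and 0 with siGFP. Without the cluster at 2232, an alternative chosen after seeing the data, the middle held 7.03% with siPIWI and 8.25% with siGFP. Without position 351, siPIWI OSCs had 31.4% in the first and 44.6% in the last class. The ovary libraries, with 54 and 51 reads, limit every statement on ovary.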
